A study of Mus musculus with 16 samples.

Results

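Insulin leaves the beta cell when granules dock at the plasma membrane, are primed, and fuse as calcium enters. The 9 genes of this machinery that follow are described here by the accessibility of their chromatin in mouse pancreatic islets: the calcium sensor *Syt7*, the SNARE genes *Snap25*, *Stx1a* and *Vamp2*, the priming factor *Unc13a*, the small GTPases *Rab3a* and *Rab27a*, the complexin *Cplx1* and the active zone scaffold *Rims2*. The 9 genes were taken by name. Peaks of all samples that overlapped or touched were merged on chromosomes 1 to 19, and every merged region overlapping the body of one of these genes, or the 3 kb before its start, was taken as a region of that gene. This gave 212 regions out of 347712, of which 33 were listed in all 16 samples, out of 40940 such regions in the series.

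The series holds ATAC-seq peak lists of islets from the 8 founder strains of the Diversity Outbred mice, with 1 female and 1 male sample of each strain. The labels name the strains as 129S1_SvImJ (129 below), A_J (AJ), C57BL/6J (B6), CAST_EiJ (CAST), NOD_ShiLtJ (NOD), NZO_HlLtJ (NZO), PWK_PhJ (PWK) and WSB_EiJ (WSB). CAST, PWK and WSB are derived from wild mice and the other 5 are classical laboratory strains. All are inbred strains without an engineered allele or a treatment in the labels, each sample was made from 50 islets, and age and the number of animals behind a sample are not given in the labels, so p-values measure the spread between these samples. ATAC-seq marks DNA that a transposase can reach, and accessible stretches at gene starts and within introns often hold promoters and enhancers. An islet is a mixture of endocrine cells, mostly beta cells, with vessels and some immune cells, and in such bulk tissue fewer accessible cells and less accessibility per cell cannot be told apart.

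In neuroendocrine cells the vesicle SNARE of *Vamp2* pairs with the membrane SNAREs of *Stx1a* and *Snap25* to pull both membranes together. Complexin holds the assembled SNAREs ready, synaptotagmin 7 is a slow, high-affinity calcium sensor used by beta cells, Munc13-1 (*Unc13a*) opens syntaxin for assembly, and Rab3a, Rab27a and RIM2 tether granules near calcium channels. Accessibility is given as a scaled signal, which is the height of a sample's peak summit divided by that sample's median over the regions listed in all 16 samples. A value of 1 is therefore the typical shared region of that sample. A value of 0 means that the sample's list holds no peak there, which does not show that the chromatin was closed.

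The islet label was checked against promoters of marker genes. Promoter peaks were listed in all 16 samples for 8 of 10 endocrine genes, *Ins1*, *Ins2*, *Iapp*, *Gcg*, *Pdx1*, *Nkx6-1*, *Neurod1* and *Isl1*, and in no sample for *Sst* and *Ppy*. Of 5 duct promoters 1 to 5 were listed, *Cftr* in all samples and all 5 in the NZO male. Of 8 acinar promoters 1 was listed in the NZO male and 0 in the other samples, of 5 endothelial promoters at most 1, of 6 leukocyte promoters at most 2 and of 4 neural and glial promoters at most 1. The summed promoter signal of the 5 duct genes ran from 0.446 to 3.27 and that of the leukocyte genes from 0 to 0.873, with the NZO male highest in both. The summed endocrine signal ran from 16.5 in the NZO male to 25.1 in the AJ male. The samples listed 77887 to 167051 autosomal peaks, fewest in the AJ male and most in the WSB female, and the part of these differences in the results was not tested.

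The 9 genes differed widely in how much accessible chromatin they held. *Rims2*, which spans 489 kb with its upstream part, had 99 regions, *Unc13a* 31, *Snap25* 28, *Rab27a* 23, *Syt7* 22, *Vamp2* and *Cplx1* 3 each, *Stx1a* 2 and *Rab3a* 1. Per 10 kb of gene and upstream sequence, *Unc13a* held 6.16 regions, *Vamp2* 4.35, *Rab27a* 4.12, *Snap25* 3.89, *Syt7* 3.28, *Rims2* 2.02, *Rab3a* 1.43, *Cplx1* 0.870 and *Stx1a* 0.653. The shared regions lay in *Rims2* (10), *Rab27a* (9), *Syt7* (6), *Snap25* (4), *Unc13a* (3) and *Rab3a* (1), and none of the regions of *Stx1a*, *Vamp2* or *Cplx1* was listed in every sample. Of the 212 regions, 15.6% were listed in all 16 samples, beside 11.8% over all regions, and 42% in 1 sample alone, beside 46.4% over all regions. The number of these regions listed in a sample was lowest in the AJ male, at 48, and highest in the WSB female, at 138. These samples also listed the fewest and the most regions over the whole genome, 71121 and 160818.

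**Figure D1:**
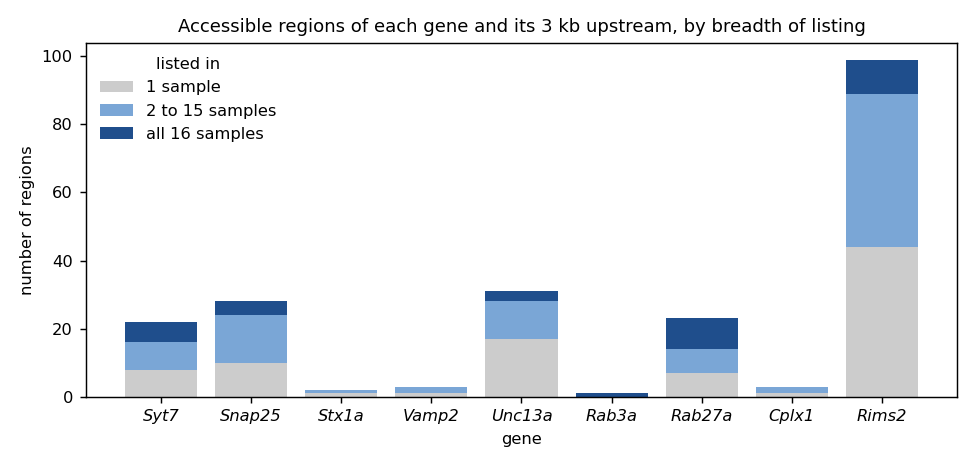
Number of accessible regions (vertical axis) in the body and 3 kb upstream of each gene (horizontal axis), split by how many of the 16 samples listed them. *Rims2* held 99 regions, 10 of them in all samples, while the 1 region of *Rab3a* was listed in every sample.

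The gene starts themselves separated into strong and weak. The promoter region of *Rims2* (chr15:39196406-39199674, mm10) had the highest signal, with a median of 4.86 over samples and a range from 3.78 to 5.83. That of *Rab3a* (chr8:70752000-70757784) had a median of 4.68, from 3.33 to 6.65, and that of *Snap25* (chr2:136711195-136715216) a median of 3.37, from 1.87 to 4.52. These starts stood well above the typical shared region in every sample. *Syt7* (chr19:10385009-10395773) had a median of 2.36, *Unc13a* (chr8:71665530-71673167) 2.09 and *Rab27a* (chr9:73043885-73046131) 1.53. The *Cplx1* start (chr5:108549478-108550160) was weaker, with a median of 0.421 and no peak in the NZO male.

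*Stx1a* and *Vamp2*, whose products are both needed for fusion, showed little at their starts. The *Stx1a* promoter region (chr5:135023413-135023599) was listed in 5 samples, at 0.552 in the 129 female, 0.189 and 0.250 in the CAST female and male, 0.636 in the NZO male and 0.160 in the WSB female. The *Vamp2* promoter region (chr11:69088300-69089994) was listed in 6 samples, at 0.414 in the 129 female, 0.264 and 0.213 in CAST, 0.473 in the NZO male and 0.142 and 0.170 in WSB. Both starts were thus weak wherever they were listed, and 4 of the strains, AJ, B6, NOD and PWK, had no peak at either start in either sample. Neither could enter the test across strains, which needs a value in every sample.

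**Figure D2:**
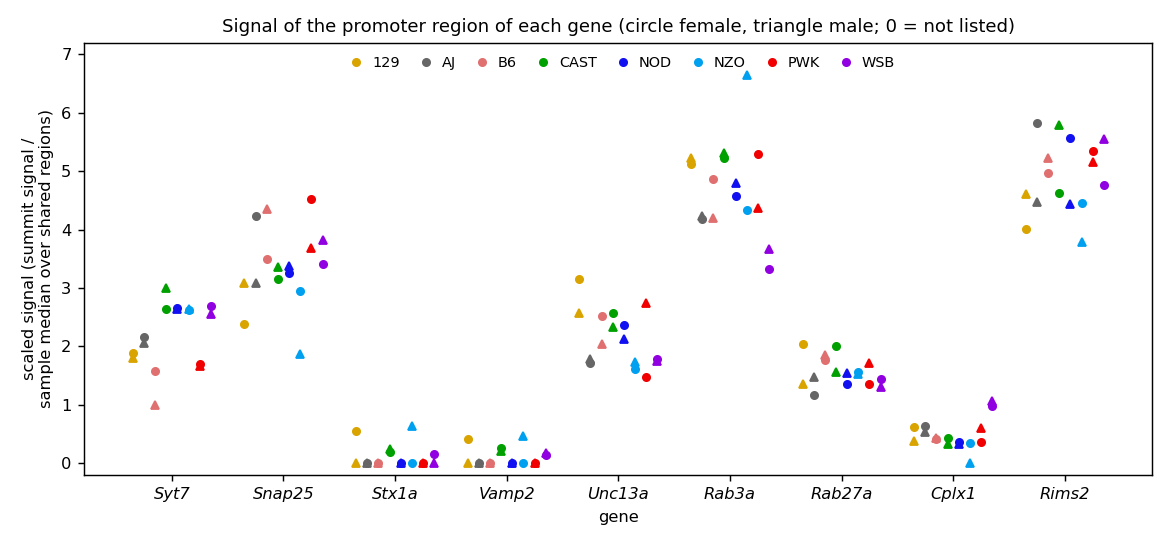
Scaled signal (vertical axis, in units of the sample's median shared region) of the promoter region of each gene in the 16 samples, coloured by strain, circles for females and triangles for males. *Rims2*, *Rab3a* and *Snap25* lie at 1.87 or above in all samples, while *Stx1a* and *Vamp2* lie at 0 in most.

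Strain differences were tested in the 33 shared regions within one limma fit over all 40940 shared regions, with strain and sex in the model, and a region passed when its Benjamini-Hochberg adjusted p over all regions was under 0.05. Of the 33 regions, 10 passed the test for a strain effect (30.3%), beside 35.7% of all shared regions. The share of regions with a strain effect was thus not above that of the shared accessible chromatin at large. The 10 regions lay in *Rab27a* (4 of 9), *Syt7* (4 of 6) and *Rims2* (2 of 10), and none of the 4 *Snap25*, 3 *Unc13a* or 1 *Rab3a* regions passed by limma, nor did any of these 8 at an unadjusted p under 0.05. The standard deviation of the 8 strain means had a median of 0.297 log2 units over the 33 regions and 0.379 over all shared regions. The count of 10 fell by more than 1.5-fold without the B6 male, the NOD male, either CAST sample or either WSB sample. In each of these fits the share over all shared regions was lower too. Smaller changes with 1 sample left out are not listed here. Without the strain CAST the count was 6, beside 15.5% of all shared regions, and without the strain WSB it was 6, beside 25.7%.

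When each strain was set against the mean of the other 7, 9 of the 33 regions passed in at least 1 strain. WSB passed in 4 regions, always higher, where 6.37% of all shared regions passed. B6 passed in 3 regions, 1 higher and 2 lower, beside 4.58%, and PWK in 3, 1 higher and 2 lower, beside 9.57%. CAST passed in 2, 1 in each direction, beside 15.2% of all shared regions, the highest share of any strain. AJ (lower), NOD (higher) and NZO (lower) passed in 1 region each, beside 7.18%, 4.75% and 6.27%, and 129 in 0 by limma, beside 5% of all shared regions. The count of 9 was 5 without the strain CAST, and it also fell by more than 1.5-fold without any 1 CAST, NOD or WSB sample. No share over all shared regions is given for these fits. Smaller changes with 1 sample left out are not listed here.

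**Figure D3:**
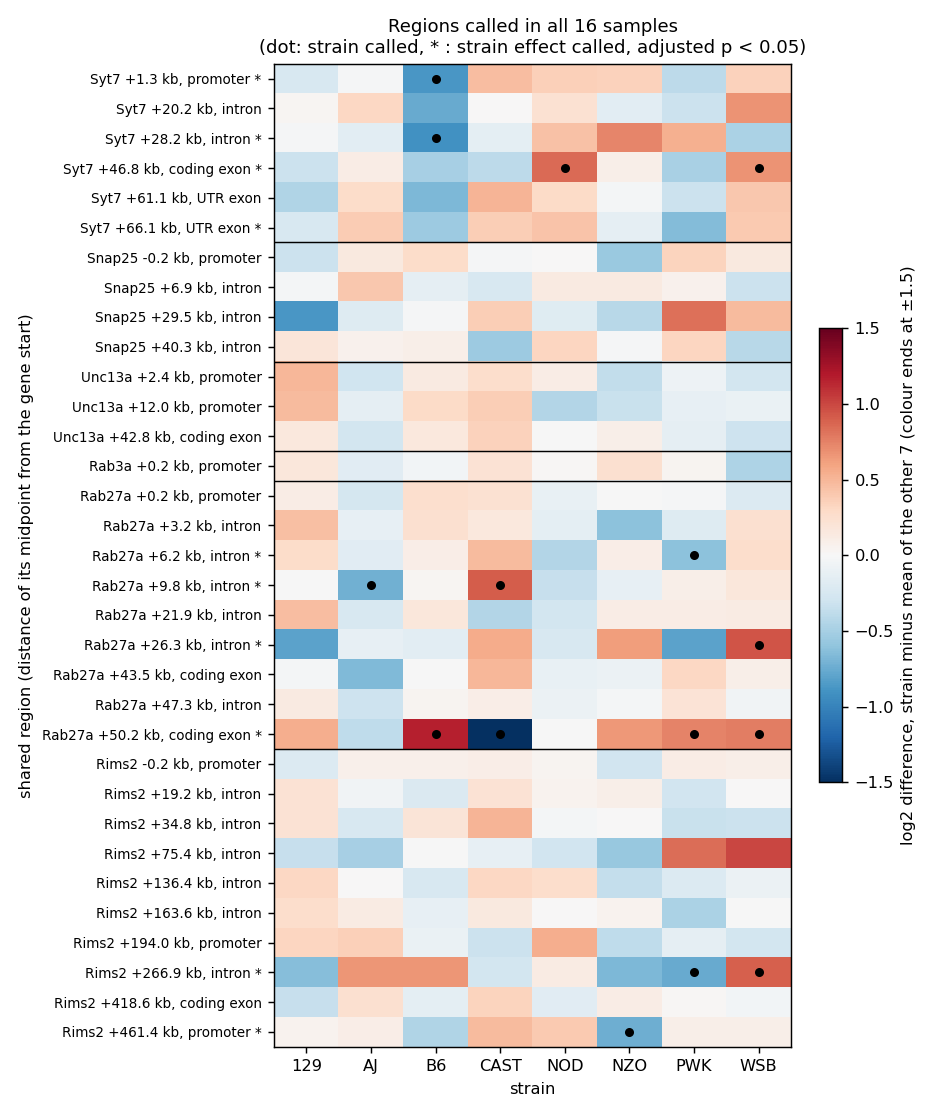
The 33 shared regions (rows, with the distance of their midpoint from the gene start in kb) in the 8 strains (columns), coloured by the log2 difference between the strain and the mean of the other 7. Dots mark strains that passed and asterisks regions with a strain effect. The darkest cell is the last *Rab27a* region in CAST, whose value of -3.48 lies beyond the end of the colour scale, and all 6 *Syt7* regions are blue in B6.

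*Rab27a* encodes the GTPase that, with its effectors, brings granules to the membrane, and its mouse mutant ashen is known for pale coat and impaired secretion. Its regions ran from the promoter to the last exon. The last of them (chr9:73093833-73096242) covers the end of the last intron and part of the last exon, and its summit, at position 73094737, lies in the intron 521 bases before that exon begins. This region had the smallest adjusted p of the 33 (1.04e-05). The reference bases around its summit are shown because the summit was present in 7 strains and missing from 1. They are printed on the plus strand of mm10 (chr9:73094587-73094886), which is the C57BL/6J sequence, and the alleles of the other strains were not analysed here. Capitals mark GTTGCC, a part of the X-box bound by RFX factors, searched on both strands. It was added to the search after this window had been read, and 14.4% of the 300-base windows around the summits of all shared regions hold it.
Rab27a last intron: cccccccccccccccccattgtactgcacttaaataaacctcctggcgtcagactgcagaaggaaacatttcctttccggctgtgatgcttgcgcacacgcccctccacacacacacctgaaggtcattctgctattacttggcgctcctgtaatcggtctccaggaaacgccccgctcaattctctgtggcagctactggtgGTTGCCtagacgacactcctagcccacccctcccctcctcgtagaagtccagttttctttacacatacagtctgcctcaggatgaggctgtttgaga

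In CAST this region was at 0.208 in the female and 0.132 in the male. In B6, the highest strain, it was at 2.82 and 3.02. The other strains lay between, with 1.98 and 2.03 in 129, 1.28 and 1.02 in AJ, 1.27 and 1.61 in NOD, 2.56 and 1.78 in NZO, 2.23 and 2.31 in PWK, and 2.51 and 2.09 in WSB. No other sample came near the CAST samples, the lowest of the rest being the AJ male at 1.02. By strain mean the order was B6 (2.92 ± 0.143, SD, n = 2), WSB (2.3 ± 0.296), PWK (2.27 ± 0.061), NZO (2.17 ± 0.547), 129 (2.01 ± 0.033), NOD (1.44 ± 0.242), AJ (1.15 ± 0.183) and CAST (0.170 ± 0.053). The range of NZO overlapped those of WSB, PWK and 129, and WSB and PWK overlapped each other, while 129 lay below both. The ranges of NOD and AJ overlapped in part, whereas B6 and CAST each stood apart from every other strain.

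The log2 difference of CAST from the mean of the other 7 strains was -3.48 ± 0.20 (SE; limma, adjusted p = 1.46e-06), and the B6 mean was 17.2 times the CAST mean. B6 was higher by 1.17 ± 0.20 (adjusted p = 0.00425), WSB by 0.77 (adjusted p = 0.0366) and PWK by 0.74 (adjusted p = 0.0427). CAST is 1 of the 7 strains to which each of these is compared. With both CAST samples left out the differences were 0.68 for B6 (adjusted p = 0.0944), 0.28 for WSB (adjusted p = 0.486) and 0.25 for PWK (adjusted p = 0.537). Of the 16 fits that leave out 1 sample, the B6 call was lost in 1 (without the B6 male), the WSB call in 9 and the PWK call in 11. The CAST difference itself stayed between -3.76 and -2.40 and passed under each alternative in which CAST and this region were tested. The region was not tested where only the strongest peaks, peaks covering most of a region or summits close together were kept.

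What CAST did list in this region was not the same peak. The summits of the other 14 samples lay within 74 bases of position 73094737, while the CAST female's lay 1457 bases and the CAST male's 851 bases away, so the strain has no listed summit at the intronic site. The authors' own −log10 p there was 1.7 and 0.8 in CAST and between 10.8 and 86.0 in the other samples. In the deposited strain lists, which keep peaks found alike in both samples, 7 strains held a peak and CAST did not. The neighbouring *Rab27a* regions were not low in CAST. At chr9:73091333-73093045 CAST was at 1.25 and 1.01, within the range of the other samples, and at chr9:73086200-73090439 it was at 2.95 and 2.63, with the mean highest of the 8 strains (strain effect adjusted p = 0.113).

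**Figure D4:**
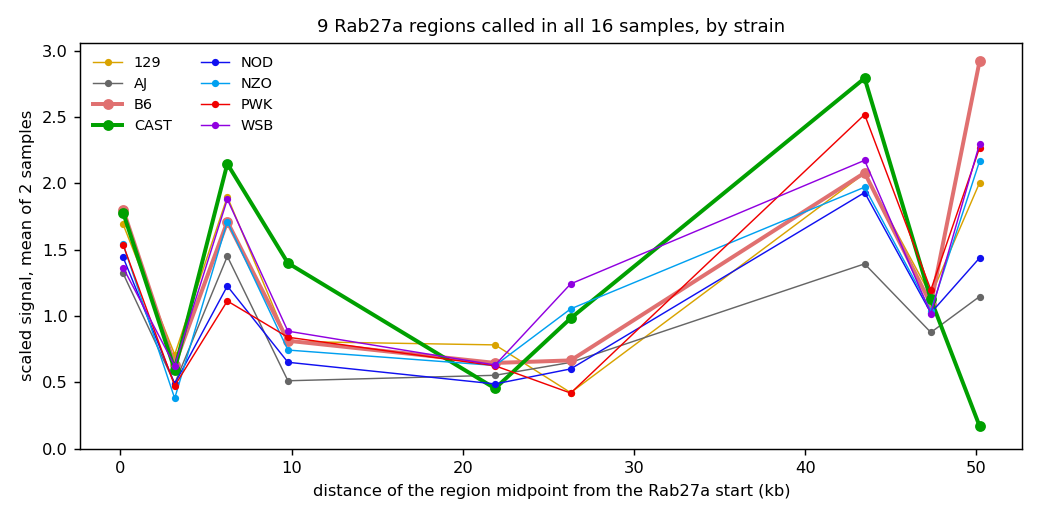
Mean scaled signal of the female and male sample (vertical axis) at the 9 *Rab27a* regions listed in all 16 samples, against the distance of each region's midpoint from the gene start in kb (horizontal axis), with lines joining the regions of a strain. CAST (green) is highest in the regions 6237, 9776 and 43463 bases from the start and falls to 0.170 at the last region, where B6 reaches 2.92.

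A second *Rab27a* region, in the first part of the gene (chr9:73052841-73056425, intron), differed the other way in CAST. It was named after its values were seen. CAST was at 1.56 and 1.24, and all other samples lay from 0.462 in the AJ female to 0.966 in the 129 female. CAST was higher by 0.91 ± 0.19 (adjusted p = 0.0133) and AJ, at 0.462 and 0.564, lower, with a difference of -0.72 ± 0.19 (adjusted p = 0.0405), with a strain effect at adjusted p = 0.0236. In this region too the summit of CAST stood elsewhere: the other 14 summits lay between 1357 and 1763 bases from that of CAST. The strain effect was lost in 6 of the 16 fits that leave out 1 sample, the highest adjusted p being 0.130 without the CAST female, and it was 0.252 without the strain CAST and 0.244 with the deposited mean signal. The CAST call was lost without its female (adjusted p = 0.134), without its male (0.0919) and with the deposited mean signal (difference 0.46, adjusted p = 0.160). The AJ call was lost in 10 of the 16 fits, with a difference of -0.43 (adjusted p = 0.370) without the AJ female, and it was -0.27 (adjusted p = 0.443) with the mean signal.
The plus strand of the reference around the CAST summit (chr9:73053933-73054232) is given for comparison with the site that CAST lacked, with the same letters in capitals.
Rab27a CAST summit: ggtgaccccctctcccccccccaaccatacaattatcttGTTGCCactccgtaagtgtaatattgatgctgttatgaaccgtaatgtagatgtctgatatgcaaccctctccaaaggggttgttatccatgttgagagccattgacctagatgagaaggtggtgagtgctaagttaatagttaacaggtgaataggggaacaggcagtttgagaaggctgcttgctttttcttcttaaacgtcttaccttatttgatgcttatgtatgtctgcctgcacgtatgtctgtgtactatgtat

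A strain effect passed in another 2 *Rab27a* regions. At chr9:73070613-73071685 (intron) WSB was highest by mean, at 1.29 and 1.19, followed by NZO at 1.31 and 0.8, and PWK lowest, at 0.371 and 0.469, with the 129 samples next at 0.397 and 0.449 (adjusted p = 0.0149). Only WSB passed against the other strains, higher by 0.94 ± 0.25 (adjusted p = 0.0372). Without the WSB female the strain effect had an adjusted p of 0.0513 and the WSB difference one of 0.212, and without the WSB male the latter was 0.149. The WSB call was lost in 9 of the 16 fits that leave out 1 sample. At chr9:73049914-73052273 (intron, named after its values were seen) PWK was at 1.29 and 0.938, overlapping NOD at 1.22 and 1.23, and its difference was -0.62 ± 0.17 (adjusted p = 0.0466, and 0.266 without the PWK male), with CAST highest at 2.24 and 2.06 (strain effect adjusted p = 0.0386, and 0.605 with the deposited mean signal). Of the 16 fits that leave out 1 sample, the PWK call was lost in 13 and the strain effect in 10. The promoter lay at 1.17 to 2.03 in all samples and did not pass (adjusted p = 0.637). Its strain means spread over a 1.36-fold range, beside the 17.2-fold range of the last region.

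*Syt7* showed another pattern, lower signal in B6. All 6 of its shared regions were lower in B6 than in the mean of the other strains, and B6 passed in 2 of them. Over all 33 regions B6 was lower in 18, and the median B6 difference was -0.01 log2 units. At the promoter region B6 was at 1.57 and 0.988. PWK came next, at 1.69 and 1.66, then 129 at 1.88 and 1.80 and AJ at 2.15 and 2.05. NOD (2.65 and 2.63), NZO (2.63 and 2.64), WSB (2.69 and 2.56) and CAST (2.63 and 2.99) were close to one another at the top. The strain means formed a graded series, with the B6 samples below all others. The B6 difference was -0.87 ± 0.18 (adjusted p = 0.0124), and the strain effect had an adjusted p of 0.0158. Without the B6 male the B6 difference was -0.54 (adjusted p = 0.186) and the strain effect had an adjusted p of 0.0517, and with the deposited mean signal they were -0.33 (adjusted p = 0.364) and 0.363. Without centring the B6 difference was -0.68 (adjusted p = 0.131). The region is long and also covers the start of the transcript *Gm26859*, whose part in the signal was not tested.

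In an intron (chr19:10416779-10417805, named after its values were seen) B6 was again lowest, at 0.488 and 0.422. WSB was next at 0.642 and 0.545, and NZO had the highest mean, at 0.926 and 1.67, far apart from each other. The B6 difference was -0.91 ± 0.22 (adjusted p = 0.0234) with a strain effect at adjusted p = 0.0174. Without the B6 female the difference was -1.02 (adjusted p = 0.0707) and without the B6 male -0.79 (adjusted p = 0.152). The strain effect was lost without the B6 male (adjusted p = 0.0531), without the strain B6 (0.0686) and in the fit of regions listed in at least 12 samples (0.0633). Another 2 regions close by, chr19:10400000-10404047 and chr19:10412800-10414199, were listed in 15 samples, and in both the missing sample was the B6 male, while the B6 female was at 0.238 and 0.298. An intronic region at chr19:10397309-10398864 was listed in 11 samples, with no peak in either B6 sample, either PWK sample or the 129 male, and with its highest values in NOD, 1.07 and 0.927, and AJ, 0.769 and 0.927. These 3 regions, picked with their values in view, were not tested in the fit of shared regions.

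The strongest strain effect in *Syt7* lay deeper in the gene, at chr19:10433887-10437933, which holds a coding exon (adjusted p = 0.00598). NOD was at 4.47 and 3.87 and WSB at 3.73 and 3.72. AJ (2.86 and 2.47) and NZO (2.99 and 2.29) followed, and the other strains lay from 1.67 to 2.10. The samples of NOD and WSB lay above all others without overlap. NOD was higher by 0.85 ± 0.17 (adjusted p = 0.0108) and WSB by 0.67 ± 0.17 (adjusted p = 0.0342). The summits of all 16 samples lay within 57 bases of position 10435111, in intronic sequence that is shown because the summits coincide. Whether the difference is confined to that position was not tested. With the deposited mean signal, which averages over the width of each sample's peak, the differences were 0.04 for NOD (adjusted p = 0.934) and -0.03 for WSB (adjusted p = 0.953). The strain effect did not pass with that signal either (limma, adjusted p = 0.0851). Without the NOD female or male the NOD adjusted p was 0.114 and 0.0690, and without the WSB female or male the WSB adjusted p was 0.155 and 0.218. The WSB call was lost in 8 of the 16 fits that leave out 1 sample. The window (chr19:10434961-10435260, plus strand) holds none of the motifs searched on both strands. Of the windows of all shared regions, 1.53% hold the cAMP response element TGACGTCA, 11.5% the AP-1 site TGACTCA and 8.03% the forkhead core TGTTTAC. The homeodomain core TAATTA is held by 8.54%, the E-boxes CACGTG and CAGATG by 6.65% and 25.1%, and the GC box GGGCGG by 23%. The X-box letters given above are held by 14.4%, the RE1 motif by 0.0733% and the CTCF motif by 4.67%.
Syt7 inner region: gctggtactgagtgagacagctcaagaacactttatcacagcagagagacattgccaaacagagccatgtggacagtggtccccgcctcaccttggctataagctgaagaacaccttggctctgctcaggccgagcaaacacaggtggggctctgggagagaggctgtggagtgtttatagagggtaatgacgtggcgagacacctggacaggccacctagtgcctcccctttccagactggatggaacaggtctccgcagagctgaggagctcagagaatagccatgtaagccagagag

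At the 3′ end of *Syt7* (chr19:10451672-10458789, named after its values were seen) the strain effect passed with an adjusted p of 0.0359, but no single strain did. PWK was at 1.26 and 1.66 and B6 at 1.98 and 1.19, and NOD was highest by mean, at 2.81 and 2.73. Summits lay up to 2066 bases from the strongest, with both samples of PWK, 129 and NZO and the WSB male at least 1259 bases away. The region also covers the start of *Lrrc10b*. It lost its call without any of 10 of the 16 samples.

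*Snap25* encodes the SNARE that supplies a pair of helices to the fusion complex and is cut by botulinum toxin A. Its 4 shared regions had adjusted p between 0.187 and 0.398 for a strain effect, so that no difference between strains could be told from the spread between samples there. A first-intron region outside this set differed by far the most. At chr2:136723788-136727893, listed in 15 samples and chosen after its values were seen, CAST was at 1.97 and 2.24, WSB at 1.51 and 1.48, PWK at 1.42 and 1.47, and NZO at 1.14 and 0.818. The other 4 strains lay from 0 in the AJ male to 0.602 in the B6 male. The 8 samples of CAST, WSB, PWK and NZO did not overlap the other 8.

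The difference lay in where the peak stood. In those 8 samples the summit lay within 36 bases of position 136727123. In the 7 other samples with a peak it lay 761 to 3276 bases away. The authors' −log10 p was between 10.9 and 78.0 in the former and between 0.8 and 7.2 in the latter, and the strain lists held a peak in CAST, NZO, PWK and WSB only. In the fit over 66895 regions listed in at least 12 samples, where a missing peak counts as 0, the strain effect at this region had an adjusted p of 0.0621. Only AJ passed against the other strains, with a difference of -3.45 (adjusted p = 0.0320), its male being the sample set to 0, and CAST was higher by 2.11 (adjusted p = 0.155). Of the 51 regions of these genes in that fit 4 passed (7.84%), beside 18.3% of all regions in it. The reference sequence around the summit (chr2:136726973-136727272, plus strand) holds, on the minus strand, CAGATG, an E-box of the kind bound by NEUROD1, and GTTGCC. Their complements, CATCTG and GGCAAC, are in capitals.
Snap25 intron: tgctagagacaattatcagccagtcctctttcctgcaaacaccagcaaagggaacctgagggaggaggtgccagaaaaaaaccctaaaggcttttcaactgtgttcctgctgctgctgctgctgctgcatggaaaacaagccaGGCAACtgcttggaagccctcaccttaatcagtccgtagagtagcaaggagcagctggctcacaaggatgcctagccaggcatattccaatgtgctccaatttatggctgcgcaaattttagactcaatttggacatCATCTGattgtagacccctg

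Weaker *Snap25* regions were listed in some strains and not in others. The region at chr2:136731777-136733412 was listed in the 6 samples of the 3 wild-derived strains and no other, at 0.170 and 0.206 in CAST, 0.210 and 0.219 in PWK, and 0.142 and 0.125 in WSB. The region at chr2:136768228-136769301 was listed in CAST alone, at 0.226 and 0.272. All of these values are low beside the typical shared region, and a low peak can be missed in a sample of lower depth, which the deposited lists do not give.

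**Figure D5:**
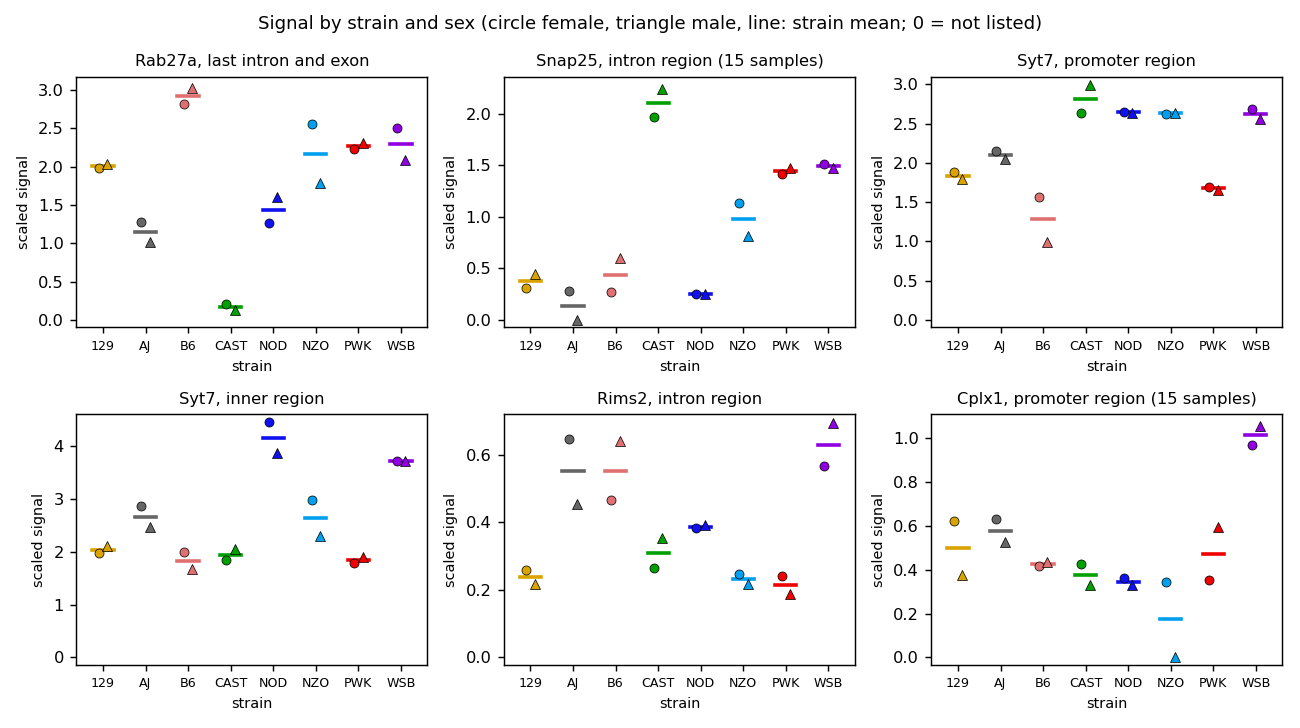
Scaled signal (vertical axis) at 6 regions in the 8 strains (horizontal axis), circles for females, triangles for males and lines for the mean of both, with 0 where no peak was listed. CAST lies at 0.132 and 0.208 in the last *Rab27a* region, CAST, NZO, PWK and WSB lie above the rest in the *Snap25* intron, and WSB stands above the rest at *Cplx1*.

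*Cplx1* encodes the complexin that clamps assembled SNAREs. Its promoter region was listed in 15 samples, with WSB at 0.972 and 1.06. All other samples lay between 0.329 in the NOD male and 0.631 in the AJ female, apart from the NZO male, which had no peak. WSB thus stood above every other sample, although in the fit over regions listed in at least 12 samples its difference of 1.54 log2 units did not pass (adjusted p = 0.298, strain effect adjusted p = 0.241). A second region, upstream of the start, (chr5:108551000-108551199) was listed in both WSB samples alone, at 0.113 and 0.136. The 250 bases before the annotated start are printed on the strand of the gene, the minus strand (chr5:108550025-108550274), with CCGCCC, the complement of the GC box GGGCGG, in capitals. They do not hold the summits, which lay inside the gene near position 108549953. They also reach past the end of the region at position 108550160.
Cplx1 upstream: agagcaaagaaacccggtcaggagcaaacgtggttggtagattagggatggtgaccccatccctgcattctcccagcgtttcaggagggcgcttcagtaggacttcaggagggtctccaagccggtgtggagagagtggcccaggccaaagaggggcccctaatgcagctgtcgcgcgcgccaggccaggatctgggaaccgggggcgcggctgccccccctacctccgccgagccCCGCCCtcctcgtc

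*Rims2*, the largest of the genes, encodes the scaffold that links Rab3 on the granule to the release site. Its main promoter was the most even of the strong starts, with strain means within a 1.27-fold range and no strain effect (adjusted p = 0.767). Of its inner regions, 2 passed. At chr15:39464800-39465599 (intron, adjusted p = 0.00346) WSB was at 0.566 and 0.693, AJ at 0.646 and 0.455 and B6 at 0.464 and 0.639. PWK (0.242 and 0.188), NZO (0.247 and 0.218) and 129 (0.259 and 0.217) were lowest. Their peaks were weak. The authors' −log10 p was 1.3 and 0.7 in PWK, 4.1 and 2.7 in NZO and 0.7 and 1.7 in 129, beside 24.9 and 17.9 in WSB. The strain lists held a peak there in B6, CAST, NOD and WSB only. The 3 high and 3 low strains did not overlap, with CAST (0.264 and 0.353) and NOD (0.384 and 0.390) between them. WSB was higher by 0.89 ± 0.21 (adjusted p = 0.0198, and 0.204 without its male) and PWK lower, with a difference of -0.76 ± 0.21 (adjusted p = 0.0411, and 0.210 without its male). The PWK call was lost in 11 of the 16 fits that leave out 1 sample, and its difference was -0.40 (adjusted p = 0.172) with a pseudocount of 8. The WSB call was lost in 2 of the 16.

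The other region is an inner promoter of *Rims2* (chr15:39659059-39660183), where shorter transcripts start. NZO was at 0.864 and 0.891, with a difference from the rest of -0.74 ± 0.20 (adjusted p = 0.0370), B6 was next at 1.12 and 0.976, and CAST was highest by mean, at 1.84 and 1.85, with the AJ male at 1.95. The strain effect only just passed (adjusted p = 0.0490) and was lost in 14 of the 16 fits that leave out 1 sample. The NZO call was lost in 9 of them, and with the deposited mean signal its difference was -0.12 (adjusted p = 0.728). Another *Rims2* promoter, at chr15:39391509-39393111, lay between 0.436 and 1.18 and did not pass (adjusted p = 0.336).

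Regions found in both samples of 1 strain and in no other sample numbered 9 of the 212 (4.25%), beside 4.4% over all regions. WSB had 5 of them, CAST 3 and NZO 1, and the genes were *Rims2* (5), *Syt7*, *Snap25*, *Unc13a* and *Cplx1* (1 each). The highest by mean was a *Rims2* intron region (chr15:39248195-39248511) at 0.148 and 0.8 in NZO, followed by another (chr15:39310769-39311076) at 0.377 and 0.272 in CAST, which the CAST strain list also held. The *Syt7* one (chr19:10420200-10420999) was at 0.132 and 0.216 in WSB, and the *Unc13a* one, over an untranslated exon (chr8:71624200-71624799), at 0.123 and 0.0568 in WSB. All but the NZO male's 0.8 were low. Both WSB samples held 5 of them, and the WSB female had the longest peak list of the series. The converse case was a *Rims2* intron region (chr15:39346629-39346999) that was listed in 13 samples and missing in both CAST samples and the 129 female, with 0.953 and 0.636 in WSB as the highest mean. In the fit over regions listed in at least 12 samples CAST was lower there (adjusted p = 0.0115), while the strain effect did not pass (adjusted p = 0.0501). The CAST-only *Rims2* region is printed over its first 213 bases (chr15:39310769-39310981, plus strand), with CATCTG, the complement of CAGATG, in capitals.
Rims2 CAST region: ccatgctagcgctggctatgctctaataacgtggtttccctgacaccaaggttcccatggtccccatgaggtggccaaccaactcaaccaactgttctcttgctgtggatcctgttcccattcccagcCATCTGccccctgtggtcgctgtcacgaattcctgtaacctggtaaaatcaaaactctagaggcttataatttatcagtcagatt

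No region of *Unc13a* or *Rab3a* passed. At the *Unc13a* promoter 129 was highest, at 3.16 and 2.57, and the others lay from 1.47 to 2.75, with no strain effect (adjusted p = 0.228, and 0.0473 without the PWK male). A second promoter region of the gene (chr8:71657732-71661697) lay between 0.556 and 1.59 (adjusted p = 0.234), and a region over coding exons near the 3′ end (chr8:71627600-71630283) between 1.55 and 2.65 (adjusted p = 0.439). At the *Rab3a* promoter WSB was lowest, at 3.33 and 3.66, and the NZO male highest, at 6.65, while the NZO female was at 4.33 (adjusted p = 0.353). With 2 samples a strain these tests do not show that strains were equal.

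Wild-derived and classical strains were compared on the 8 strain means. None of the 33 regions passed by limma (lowest adjusted p 0.222), and 3 had an unadjusted p under 0.05 (9.09%, beside 12.1% of all shared regions). Over all shared regions 14 passed (0.0342%). None of the 33 regions passed for sex either (limma, adjusted p at least 0.999), 0 had an unadjusted p under 0.05, and 0 of all shared autosomal regions passed (0%), 1621 of them having an unadjusted p under 0.05 (3.96%). The female minus male difference lay between -0.12 and 0.22 log2 units over the 33 regions.

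The 55 further genes of granule docking, priming and fusion, other synaptotagmins, SNAREs, Munc18 proteins, Rab effectors and scaffolds, were treated in the same way. They held 175 shared regions in 45 genes, of which 73 passed the test for a strain effect (41.7%), in 28 genes, beside 35.7% of all shared regions. The strain means had a median standard deviation of 0.404 log2 units. With 1 sample left out, the count of 73 fell by more than 1.5-fold without either CAST sample or the NOD male. It rose most without the NZO female. The share over all shared regions moved in the same direction in each of these fits. Without the strain CAST the count was 32, beside 15.5% of all shared regions. Against the other 7 strains, CAST passed as higher in 10 and as lower in 23 of the 175 regions, beside 15.2% of all shared regions in either direction. PWK passed in 3 and 11 (9.57% of all), AJ in 8 and 11 (7.18%), WSB in 9 and 3 (6.37%) and NZO in 6 and 7 (6.27%). For 129 the counts were 7 and 6 (5%), for NOD 4 and 4 (4.75%) and for B6 7 and 2 (4.58%).

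The 5 regions with the smallest p, 1 a gene, lay in genes of several steps of secretion. An intron region of *Rapgef4*, which encodes the cAMP sensor Epac2, was at 2.87 and 2.81 in B6 and at 0.419 and 0.354 in NOD (adjusted p = 1.02e-05). An intron region of *Stx3*, a syntaxin, was at 3.23 and 4.87 in NZO and at 0.0755 and 0.206 in CAST (adjusted p = 3.05e-05). An intron region of *Sytl3*, a Rab27 effector, was at 3.11 and 3.07 in CAST and at 0.458 to 0.982 in all other samples (adjusted p = 0.000641). The promoter region of *Syt1*, a fast calcium sensor, was at 2.36 and 2.73 in CAST and at 8.05 and 8.67 in NOD (adjusted p = 0.000995). For *Rab27b*, the paralog of *Rab27a*, an exon region was at 0.5 and 0.478 in CAST and at 1.65 and 2.18 in B6 (adjusted p = 0.00110). The strain effect at *Sytl3* was lost without the strain CAST (adjusted p = 0.314) and that at *Syt1* without centring (adjusted p = 0.0644).

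The promoter regions whose 8 strain means were most like those of the last *Rab27a* region, out of 10399 promoter regions of other genes, were those of *Dct* (Pearson r = 0.953), *Impact* (0.949) and *Inava* (0.939). CAST was lowest in each. Without CAST the coefficients over 7 strains were 0.781, 0.422 and 0.587. They are descriptive, being the highest of many, and the strain means share their libraries.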

How the data were processed

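ATAC-seq peak lists of 16 islet samples and 8 strain lists were used. Per the labels and the study's methods, adapters were trimmed with cutadapt 2.0, reads were aligned to mm10 with Bowtie2 2.3.4.1, duplicates and mitochondrial reads were removed with SAMtools and Picard 2.9.2, and peaks were called with MOSAiCS in each sample at a false discovery rate of 0.05. Whether reads were shifted for the transposase is not given in the sources used here, and no sequencing batch is named in the labels. Reads of all strains were aligned to the C57BL/6J-derived reference, and the files used here come from that alignment. The study also aligned reads to individualized genomes, which were not analysed here. The authors deposited for each peak a summit signal and a mean signal, which are not scaled to depth, and a −log10 p from the caller. The strain lists, filtered by irreproducible discovery rate, hold the summed signal of both samples. The lists hold peaks and not reads, so the depth per sample is unknown and no counting interval can be given.

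Overlapping or touching peaks were merged on chromosomes 1 to 19. Genes came from GENCODE M21. For each sample the highest summit signal in a region was taken, log2(signal + 1) was centred on the sample's median over regions listed in all 16 samples, and strain and sex were fitted in limma 3.58.1 (R 4.3.3). Log2 differences are on this log2(signal + 1) scale, which understates the change of low regions, while ratios of strain means are ratios of the scaled signal. Each strain was compared with the mean of the other 7, adjusting over all regions and 8 comparisons, and strain class was compared on the 8 strain means. Both samples of a strain differ in sex. On simulated data with 40940 regions, 100 were changed by 2 log2 units in 1 strain and 100 by 1. The strain effect was recovered for 84% of the former and 3% of the latter. Far fewer regions differed there than passed in the data (14616), so the adjusted threshold was stricter. These shares are therefore not the power of the tests above.

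The genes, lists and tests were chosen with earlier results of these data known. Named were each gene's promoter region, up to 2 shared regions with the smallest strain p, up to 2 regions listed in both samples of 1 to 3 strains and in no other sample, and 5 regions of the wider list. Regions outside this rule are marked in the text or were chosen after their values were seen. Alternatives were another scaling, pseudocount, signal, peak filter and set of samples. The authors' comparisons were not used.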

Additional observations from a re-analysis of the deposited data

Results flagged for a closer look

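Among 70 groups of 8 samples of one sex, 6 had an end value standing apart from the rest by Dixon's criterion. Its chance rate is about 1 in 20. That rate is no yardstick here, because many of the regions were named for a small strain p, for a missing peak or after their values were seen. At the *Cplx1* promoter region the WSB female, at 0.972, stood above the next female, at 0.631. In the *Rab27a* intron region where CAST was high, the CAST female, at 1.56, stood above the next, at 0.966. At a *Rims2* coding exon region (chr15, start 39674852) the PWK female, at 1.81, stood above the next, at 0.934. The other 3 were males with no listed peak where all the other males had one. The AJ male was at 0 in a *Snap25* intron region (start 136744892), where the next was at 0.200, and in an *Unc13a* intron region (start 71631941), where the next was at 0.241. The B6 male was at 0 in a further *Snap25* intron region (start 136746673), where the next was at 0.156.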

How the results depend on the processing

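The regions of the 9 genes numbered 212, 53 with the strongest 40000 peaks of each sample and 65 in the strain lists. Those in all samples numbered 33, 18 with the strongest peaks, 2 where at least 0.5 of the region had to be covered and 19 in the strain lists of all 8 strains. The 10 regions with a strain effect became 22 without centring, 4 with the deposited mean signal, 4 of 51 for regions listed in at least 12 samples, 4 of 18 with the strongest peaks, 0 of 2 by limma with that much covered, 3 of 20 where summits lay within 150 bases (chosen after seeing the data), 6 without the strain CAST, 6 without the strain WSB, and 5 to 10 with 1 sample left out. The 9 regions in which 1 strain passed became 24 without centring, 5 with the strongest peaks, 0 with that much covered, 3 with close summits, 5 without the strain CAST, and 4 to 13 with 1 sample left out. The 73 regions of the wider list became 124, 36 and 5 without centring, with the strongest peaks and with that much covered, 32 without the strain CAST, and 38 to 109 with 1 sample left out. The share with a strain effect over all regions of a fit was 63.2% without centring and 27.8% with the mean signal. It was 18.3% for regions listed in at least 12 samples and 32.4% with the strongest peaks. With that much covered it was 32.6%, with close summits 32.9%, without the strain CAST 15.5% and without the strain WSB 25.7%. With 1 sample left out it was higher without either NZO sample or the 129 male and lower in every other such fit. It fell most without a CAST, WSB or NOD sample and rose most without the NZO female. No such share is given for the 9 regions in which 1 strain passed. The counts of 0 for strain class and for sex did not move under any alternative run.

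The WSB difference at the inner *Syt7* region turned to -0.032 with the mean signal, and the PWK difference at the last *Rab27a* region to -0.085 without centring. The cause was not tested in either case. Leaving samples out also lowers the number of samples per strain to 1 in that strain, whose spread is then taken from the others. No paired analysis was possible because the replicate number is the sex, which the model already holds. Without the sex term 10 and 9 regions passed. The lists used do not give the depth of each sample, so that a missing peak cannot be told from a shallow library.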
